A study of Mus musculus with 12 samples.

Results

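The respiratory chain and ATP synthase of mitochondria were followed through their 106 genes, 13 of them encoded by mitochondrial DNA and 93 by the nucleus, among the 47643 gene IDs measured. The members were chosen by symbol: mt-Nd, mt-Co, mt-Cytb and mt-Atp genes on the mitochondrial side, and Nduf, Sdha to Sdhd, Uqcr, Cox4 to Cox8 and Atp5 genes on the nuclear side, with pseudogenes left out (Ndufb1-ps by its name and 4 others by their annotated class). The nuclear members comprised 36 genes of complex I, 8 of its Ndufaf assembly factors, 4 of complex II, 8 of complex III, 20 of complex IV (with Ndufa4 and Ndufa4l2) and 17 of complex V. Poly(A) RNA came from 4 groups of 3 libraries each: whole skin of conditional Adam17 knockout mice (Skin KO), whole skin of wild type mice (Skin WT), knockout epidermis (Epidermis KO) and wild type epidermis (Epidermis WT). All mice were C57BL/6 and 10 weeks old. KO mice carried floxed ADAM17 alleles and Sox9-Cre, where Cre follows Sox9, a gene of the hair follicle lineage, so the deletion need not reach every skin cell. WT mice are given only as wild type. ADAM17 is a membrane protease that releases ligands of the EGF receptor and TNF from the cell surface.

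Complexes I to IV of the inner mitochondrial membrane pass electrons from NADH and succinate to oxygen, all but complex II pump protons, and complex V uses the proton gradient to make ATP. Mitochondrial DNA is copied into long transcripts from both strands, which are cut mostly at the tRNAs between the genes. Most of its mRNAs are then polyadenylated, so poly(A) libraries capture them. Mitochondrial DNA encodes core subunits of complexes I, III, IV and V. Complex II and all other subunits come from nuclear genes and are imported. Keratinocytes make ATP largely by glycolysis, while skeletal muscle is rich in mitochondria and uses its own isoforms of some complex IV subunits.

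The 13 mitochondrially encoded members lie close together on the mitochondrial genome, and letters shared between them bear on how reads are counted. The annotated mt-Atp8 ends inside mt-Atp6, on the same strand. The 43 bases that both genes hold (chrM:7927-7969, GRCm38, plus strand) are shown because reads in them fit both genes, and mt-Atp8 is only 204 bases long:
mt-Atp8 and mt-Atp6 overlap: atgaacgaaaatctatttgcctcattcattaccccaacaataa
The other overlaps were 7 bases between mt-Nd4l and mt-Nd4, 1 base between mt-Atp6 and mt-Co3, and 14 bases between mt-Nd5 and mt-Nd6, which lie on opposite strands. In 10 of the 13 genes the annotated transcript ended with a whole stop codon, and in 3 it ended with a single T that polyadenylation completes to TAA. The last 30 bases of mt-Co1, mt-Co3 and mt-Cytb show both kinds, with the stop letters in capitals (GRCm38, plus strand, ending at chrM positions 6872, 9390 and 15288):
mt-Co1: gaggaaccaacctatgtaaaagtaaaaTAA
mt-Co3: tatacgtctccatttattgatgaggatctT
mt-Cytb: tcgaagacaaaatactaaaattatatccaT

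The nuclear members have promoters of their own. Of the 93, 76 matched a RefSeq promoter by Ensembl ID, symbol or synonym (GRCm38.p6, 250 bases before to 50 bases after the start). A gene with several promoters was counted once, if any of them held the motif. The site of NRF1, a known activator of respiratory genes, is GCGCA, then any base, then GCGC. It stood in 19 of the members (25.0%) and in 7.17% of all 17492 protein-coding genes with promoters of the same length, counted on both strands. The ETS family core CCGGAAG, bound by GABP, stood in 18 members (23.7%) and in 12.9% of all these genes. The YY1 letters AAGATGGC stood in 11 members (14.5%) and in 3.57% of all. Any of the 3 motifs, none of which holds another, was found in 41 members (53.9%) and in 21.03% of all these genes. A match describes these letters only. The 250 bases before the start are shown for Sdha, Ndufaf4, Cox6a1 and Cox8b, whose RNA differed between groups as given further on. NRF1 and ETS letters are in capitals (CTTCCGG is the ETS core read on the other strand), and each lies on the named strand of GRCm38.p6:
Sdha, chr13:74350241-74350490, minus strand: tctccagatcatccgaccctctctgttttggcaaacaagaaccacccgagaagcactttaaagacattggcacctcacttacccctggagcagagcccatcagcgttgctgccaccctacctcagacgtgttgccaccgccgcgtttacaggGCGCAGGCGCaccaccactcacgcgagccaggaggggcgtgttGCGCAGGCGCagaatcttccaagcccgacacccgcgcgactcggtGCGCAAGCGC
Ndufaf4, chr4:24897833-24898082, plus strand: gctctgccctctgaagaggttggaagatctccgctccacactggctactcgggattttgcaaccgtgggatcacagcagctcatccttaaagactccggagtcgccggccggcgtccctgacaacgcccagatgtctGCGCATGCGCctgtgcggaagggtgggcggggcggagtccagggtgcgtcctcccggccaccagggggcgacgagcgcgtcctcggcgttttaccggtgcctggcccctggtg
Cox6a1, chr5:115348959-115349208, minus strand: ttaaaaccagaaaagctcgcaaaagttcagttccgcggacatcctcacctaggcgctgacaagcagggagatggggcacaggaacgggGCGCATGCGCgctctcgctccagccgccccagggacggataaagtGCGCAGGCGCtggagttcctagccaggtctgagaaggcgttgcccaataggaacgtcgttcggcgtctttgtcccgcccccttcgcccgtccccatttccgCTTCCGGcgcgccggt
Cox8b, chr7:140900447-140900696, minus strand: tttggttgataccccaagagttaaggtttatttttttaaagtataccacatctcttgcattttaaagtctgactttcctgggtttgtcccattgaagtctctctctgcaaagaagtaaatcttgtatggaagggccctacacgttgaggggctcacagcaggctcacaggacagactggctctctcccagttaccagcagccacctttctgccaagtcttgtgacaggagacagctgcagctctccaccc
Sdha held 3 NRF1 matches, Ndufaf4 held 1, Cox6a1 held 2 beside 1 ETS match, and the muscle isoform gene Cox8b held none of the 3 motifs. These 4 do not stand for the rest. By the edgeR calls in epidermis given below, any motif stood in 6 of 9 members higher in KO, 9 of 16 lower and 26 of 51 not called. Whether motifs go with the calls was not tested.

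Libraries held between 12208522 and 16743144 expected counts. Values below are TMM-scaled CPM, counts brought to a common library size with edgeR's TMM factors, unless a percent of a library's counts or TPM is named. Adam17 had 41.6, 52.1 and 52.5 CPM in Skin KO and 72.3, 96.3 and 94.1 CPM in Skin WT, and 48.4, 58.0 and 47.3 CPM in Epidermis KO and 79.0, 86.4 and 79.5 CPM in Epidermis WT, so it was lower without overlap in both tissues. Reads of Y-linked genes occurred in 5 of the 6 KO libraries (213 to 1781 counts, 0 in Skin KO 2) and in no WT library, and 3 of those 5 also held Xist reads. Every WT library held Xist reads (660 to 3222 counts), while Skin KO 1 and Epidermis KO 1 held 0. Genotype and sex therefore cannot be fully told apart in these libraries. The labels do not say whether libraries came from separate mice, so p-values measure the spread between these libraries only. Skin WT 1 stood apart: its 20 skeletal muscle markers summed to 104147 CPM, against 13493 and 33988 CPM in the other Skin WT libraries. They summed to 4886, 1746 and 991 CPM in Skin KO and to between 16.8 and 41.3 CPM in the 6 epidermis libraries. Counts of calls in skin are therefore also given without Skin WT 1. The 10 keratinocyte markers summed to between 66849 and 101066 CPM in epidermis and between 35295 and 60905 CPM in skin, and none was at 0 in any group. In bulk tissue, fewer cells of a type and less RNA per cell cannot be told apart.

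Nuclear copies of mitochondrial DNA took part of the reads. Annotated pseudogenes with at least 90% identity were found for 11 of the 13 mitochondrial members, and they held between 27.9% and 48.8% of the reads assigned to the members and copies together. The largest are a block on chromosome 1 (chr1:24611535-24616197) in which Gm28661 matches mt-Co2 with 100% identity over 681 bases and Gm10925 matches mt-Atp6 with 100% identity over 678 bases. Reads of such pairs cannot be assigned by sequence. Of the counts of mt-Co2 and its copies together, the copies held between 73.0% and 75.9% in all 4 groups, and of mt-Atp6 between 69.5% and 75.2%. Other shares were uneven: for mt-Co1 29.8% in Epidermis WT and 17.5% in Epidermis KO, and for mt-Nd4l 26.7% and 48.5%. Over all members with copies the share was 39.3% to 48.8% in Epidermis WT and 31.8% to 34.8% in Epidermis KO. For mt-Nd1, mt-Nd2, mt-Nd4, mt-Nd5, mt-Nd6 and mt-Cytb the copies held less than 0.3%, and mt-Atp8 had no copy, so almost none of their reads were lost this way. Nuclear members lost far less: copies of 36 of the 93 held between 0.571% and 1.04% of their summed reads.

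Mitochondrially encoded RNA was about 3 times as abundant in KO as in WT epidermis, and lower in KO than in WT whole skin, while the nuclear members together differed little. The 13 genes summed to 10.2, 9.24 and 6.10% of a library's counts in Epidermis KO and 3.12, 3.13 and 1.84% in Epidermis WT, a ratio of means of 3.16. Every Epidermis KO library lay above every Epidermis WT library. With the nuclear copies added the sums were 15.7, 13.5 and 9.17% in Epidermis KO and 5.13, 5.19 and 3.59% in Epidermis WT, a ratio of 2.76. In whole skin the 13 genes summed to 2.83, 2.03 and 2.63% in Skin KO and 3.85, 3.79 and 4.28% in Skin WT, so the groups did not overlap in the opposite direction, with a ratio of 0.628. The 93 nuclear members summed to 1.35, 1.20 and 1.30% in Epidermis KO and 1.32, 1.18 and 1.33% in Epidermis WT. In skin they summed to 1.40, 1.47 and 1.35% in Skin KO and 2.10, 1.10 and 1.24% in Skin WT, where the library rich in muscle markers (Skin WT 1) was the highest of all 12. Sums over chosen members were not tested.

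**Figure D1:**
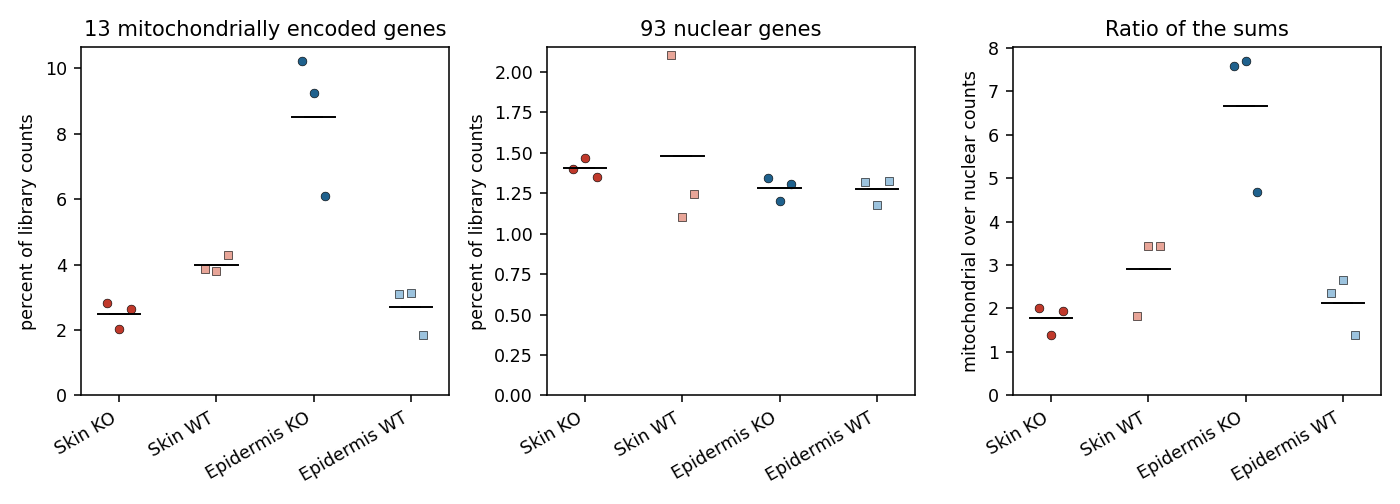
Summed counts of the 13 mitochondrially encoded genes (left) and of the 93 nuclear genes (middle), each in percent of the library's counts, and the ratio of these 2 sums (right), for the 4 groups. Points are the 3 libraries of a group and bars their mean. Mitochondrial sums reach 10.2% in Epidermis KO against at most 3.13% in Epidermis WT, and Skin WT 1 is the highest nuclear sum at 2.10%.

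The ratio of mitochondrial to nuclear member counts was 6.65 ± 1.71 in Epidermis KO and 2.13 ± 0.666 in Epidermis WT (mean ± SD, n = 3 each). In skin it was 1.78 ± 0.351 in Skin KO and 2.91 ± 0.929 in Skin WT, where Skin WT 1 had 1.83 and the other WT libraries 3.44 and 3.45. The higher level in Epidermis KO than in Epidermis WT was seen in each complex with mitochondrial subunits. The complex IV genes mt-Co1, mt-Co2 and mt-Co3 summed to 5.65, 5.36 and 3.39% in Epidermis KO and 1.74, 1.82 and 1.23% in Epidermis WT. The 7 mt-Nd genes of complex I summed to 2.40, 2.08 and 1.46% in Epidermis KO and 0.742, 0.703 and 0.335% in Epidermis WT. The mitochondrial ribosomal RNAs mt-Rnr1 and mt-Rnr2 come from the same DNA, and did not show it: they summed to 0.241, 0.190 and 0.132% in Epidermis KO and 0.163, 0.169 and 0.164% in Epidermis WT. Those groups overlap, and neither rRNA gene was called (log2 fold change 0.25 ± 0.24, adjusted p = 0.414 for mt-Rnr1 and 0.20 ± 0.25, adjusted p = 0.53 for mt-Rnr2, edgeR). Both rRNA genes were called higher in epidermis than in skin. Between the WT groups the log2 fold changes were 1.655 and 1.667 (17.5% of all genes called higher). Between the KO groups they were 2.31 and 2.312 (14.1%). Counts of mitochondrial members and copies over rRNA counts were 28.0 ± 5.33 in Epidermis WT and 68.6 ± 3.22 in Epidermis KO. In skin they were 78.3 ± 9.22 in Skin KO and 94.9 ± 14.2 in Skin WT. Mature mitochondrial rRNA carries only short A tails and is captured poorly in poly(A) libraries.

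All 13 mitochondrial members were higher in KO than in WT epidermis at an adjusted p under 0.05 (edgeR quasi-likelihood test, adjusted over all genes tested), where 51.5% of all 13632 genes tested were called in either direction and 26.2% were called higher. Their log2 fold changes ranged from 1.07 to 3.33 with a median of 1.76, beside a median of 0.00 over all genes tested. In all 13 the KO and WT libraries did not overlap, as in 30.4% of all genes tested with KO above. mt-Co1, the catalytic core subunit of cytochrome c oxidase, had 49155, 41003 and 24979 CPM in Epidermis KO and 12637, 13643 and 7652 CPM in Epidermis WT, a log2 fold change of 1.78 ± 0.33 (SE), with adjusted p = 0.0022. The lowest KO library was still above the highest WT library. mt-Cytb, the cytochrome b of complex III, had 18142, 13470.0 and 8660.1 CPM in Epidermis KO and 5111, 4850.2 and 2033 CPM in Epidermis WT (log2 fold change 1.76 ± 0.39, adjusted p = 0.00552, edgeR). Here Epidermis WT 3 was well below the other WT libraries. mt-Nd5, a proton-pumping subunit of complex I, had 4632, 3763 and 2600.4 CPM in Epidermis KO and 927, 869 and 287 CPM in Epidermis WT (2.41 ± 0.42, adjusted p = 0.00179, edgeR).

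**Figure D2:**
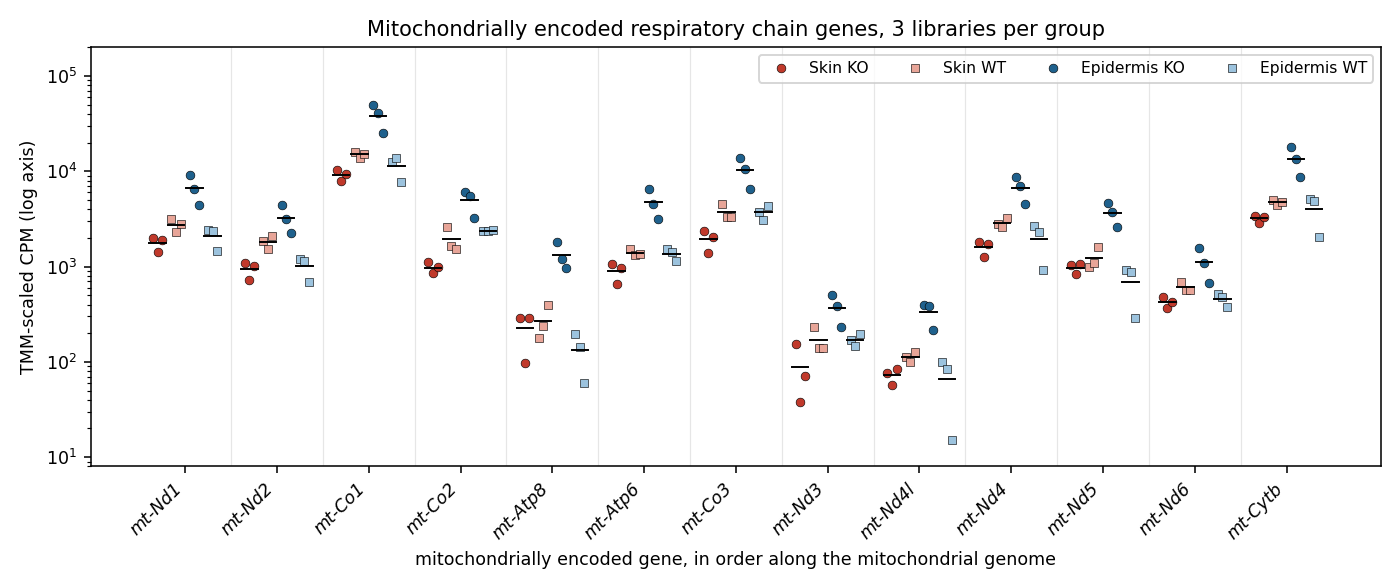
TMM-scaled CPM on a log axis of the 13 mitochondrially encoded genes in map order, with 3 libraries per group as points and their mean as a bar. In epidermis every KO library lies above every WT library for all 13 genes, and in skin the KO libraries lie lower for 10 of the 13. Epidermis WT 3 is the lowest epidermis library for 10 genes, and not for mt-Co2, mt-Co3 or mt-Nd3.

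The largest change among them was that of mt-Atp8, a small subunit of the membrane part of ATP synthase, with 1814, 1203 and 966 CPM in Epidermis KO and 195, 142 and 60.6 CPM in Epidermis WT (3.33 ± 0.42, adjusted p = 0.000363, edgeR). It is the gene that shares the printed 43 bases with mt-Atp6, which forms the proton channel. mt-Atp6 had 6549, 4576 and 3126 CPM in Epidermis KO and 1516, 1440.0 and 1139 CPM in Epidermis WT (1.81 ± 0.27, adjusted p = 0.00078, edgeR). The smallest changes were those of mt-Co2, which carries the copper centre that takes electrons from cytochrome c (1.07 ± 0.24, adjusted p = 0.00557, edgeR), and mt-Nd3 (1.14 ± 0.26, adjusted p = 0.00596, edgeR). Both had most of their reads on copies, as did mt-Atp6 and mt-Co3 (1.47), whose changes were larger. Counting copies with their member left all 13 called, with log2 fold changes from 1.02 to 3.33. That of mt-Co1 went from 1.78 to 1.54, and that of mt-Nd4l from 2.34 to 2.85. mt-Co2 with its copies had 25106, 18792 and 11792 CPM in Epidermis KO and 9328, 9408 and 9066 CPM in Epidermis WT. In 1 fit of all 12 libraries 12 were called. Without Epidermis WT 3 all 13 stayed called, from 1.08 to 2.98. With the share of Y-linked reads as a covariate, 8 stayed called and all 13 kept positive values, the lowest 0.81, while mt-Co2, mt-Nd3, mt-Nd4, mt-Nd6 and mt-Cytb missed the threshold.

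Markers of other cells differed between the same epidermis groups. The 8 neutrophil markers summed to 10967, 6148 and 3363 CPM in Epidermis KO and 8.92, 10.5 and 8.29 CPM in Epidermis WT, where Csf3r, Ly6g, Mmp8 and Cxcr1 were at 0, and 4 of the 5 tested were higher in KO. The KO library with the highest neutrophil sum, Epidermis KO 1, was also the one with the highest mitochondrial sum, and Epidermis KO 3 was the lowest in both. That order was not particular to neutrophil markers. The macrophage and dendritic cell sum, given below, had it too, and the keratinocyte sum was also highest in Epidermis KO 1. Fibroblast and endothelium sums were highest in Epidermis KO 2. The 10 fibroblast markers summed to 127, 181 and 105 CPM in Epidermis KO and 28.0, 28.1 and 17.02 CPM in Epidermis WT, and all 8 tested were higher. The 8 endothelium markers summed to 13.3, 26.7 and 24.7 CPM in Epidermis KO and 2.12, 1.31 and 0.950 CPM in Epidermis WT, and the 8 macrophage and dendritic cell markers to 536, 328 and 250.05 CPM in Epidermis KO and 145, 164 and 189 CPM in Epidermis WT. The keratinocyte sum was 101066, 71688 and 78329 CPM in Epidermis KO and 70514, 66849 and 80395 CPM in Epidermis WT, with 2 of 10 markers higher and 3 lower. The part of these cells in the mitochondrial difference was not tested. The muscle markers summed to 19.1, 41.3 and 16.8 CPM in Epidermis KO and 18.5, 19.8 and 22.4 CPM in Epidermis WT.

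In whole skin all 13 mitochondrial members had lower fitted levels in KO than in WT, and 5 of them were called: mt-Nd2, mt-Nd4 and mt-Nd4l of complex I and mt-Co2 and mt-Co3 of complex IV. Of all 14906 genes tested, 45.5% were called in either direction and 23.3% were called lower. The log2 fold changes ran from -0.89 to -0.17 with a median of -0.56, beside a median of 0.00 over all genes. mt-Nd2 had 1089, 721 and 1015 CPM in Skin KO and 1842, 1545 and 2115 CPM in Skin WT (-0.87 ± 0.21, adjusted p = 0.0148, edgeR). Its groups did not overlap. mt-Co2 had 1104, 847 and 983 CPM in Skin KO and 2621, 1641 and 1527 CPM in Skin WT (-0.89 ± 0.26, adjusted p = 0.0256, edgeR). mt-Co1 had 10385, 7831 and 9383 CPM in Skin KO and 15981, 13849 and 15247 CPM in Skin WT, again without overlap, but missed the threshold (-0.62 ± 0.22, adjusted p = 0.0577, edgeR). The groups failed to overlap in 10 of the 13, as in 32.2% of all genes tested with KO below, and mt-Nd5, mt-Nd3 and mt-Atp8 overlapped.

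These calls in skin moved with the fit. Same-numbered skin libraries deviated together, and with the replicate number as a block 9 of the 13 were called lower. DESeq2 called 10. Adding the copies left 2 calls, mt-Nd2 and mt-Nd4. Leaving out Skin KO 3 left 0 calls by edgeR (5 were lower at an unadjusted p under 0.05, and DESeq2 was not run without a library), leaving out Skin KO 2 left 1, and leaving out Skin WT 1 left 3. Without both KO libraries that held Y-linked reads 1 was called. mt-Atp8 had a positive value when Skin WT 3 or Skin KO 2 was left out, and the other 12 kept negative values in every alternative. Markers of several cell types differed between these groups. As given above, those of skeletal muscle were lower in Skin KO, 19 of 20 of them called and 18 without Skin WT 1. Fibroblast markers summed to 802, 943 and 1834 CPM in Skin KO and 2219, 2508 and 3039 CPM in Skin WT, and white adipocyte markers to 861, 549 and 744 CPM in Skin KO and 3615, 3320.0 and 4128 CPM in Skin WT. Neutrophil markers summed to 8409.9, 9066 and 8570.1 CPM in Skin KO and 22.2, 27.2 and 28.3 CPM in Skin WT. Their sum was thus higher in KO in both tissues. The part of these cells in the difference was not tested.

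The genotype effect on the mitochondrial members differed between the tissues. In the fit of all 12 libraries the effect in epidermis minus that in skin passed the threshold for all 13, always higher in epidermis, while 16.5% of 15394 genes tested passed in either direction, 10.1% in that direction and 6.36% in the other. The differences ran from 1.82 for mt-Nd6 to 3.59 for mt-Atp8 on the log2 scale, with a median of 2.45 beside 0.08 over all genes. For mt-Co1 it was 2.47 ± 0.40, adjusted p = 0.00305 (edgeR), and for mt-Nd3, the member nearest the threshold, 2.08 ± 0.62, adjusted p = 0.0412 (edgeR). Leaving out single libraries kept 12 or 13 of them, and mt-Nd3 was lost in 9 of these 12 fits. Between the KO groups, all 13 were higher in Epidermis KO than in Skin KO, by 1.40 to 2.55 (mt-Nd3 was lost without Skin KO 3, Epidermis KO 1 or Epidermis KO 2), where 29.9% of 14117 genes were called and 14.1% were called higher. Between the WT groups only mt-Nd2 was called, with 1207, 1134 and 686 CPM in Epidermis WT and 1842, 1545 and 2115 CPM in Skin WT (-0.89 ± 0.25, adjusted p = 0.0241, edgeR). There 42.9% of 14596 genes were called and 25.3% were called lower, and the mt-Nd2 call was lost without Skin WT 3, Epidermis WT 2 or Epidermis WT 3. These comparisons share their groups with the genotype comparisons and are not independent of them.

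The levels of the mitochondrial members ran over a wide range within a library. By TPM, which is per transcript length, mt-Co1 was at 26323 ± 5378 in Epidermis KO, 7965 ± 2884 in Epidermis WT, 9086 ± 1328 in Skin KO and 15329 ± 2084 in Skin WT (mean ± SD, n = 3 each). mt-Nd5 was among the lowest in each group, at 2092 ± 305 TPM in Epidermis KO, 410.5 ± 228 TPM in Epidermis WT, 800.1 ± 121 TPM in Skin KO and 1072 ± 437 TPM in Skin WT. mt-Atp8 had the highest TPM in Epidermis KO (31878 ± 4575) against 3221 ± 1863 TPM in Epidermis WT, but its short effective length makes that value uncertain. Atp5b, the nuclear member with the highest mean over all 12 libraries, was at 1212 ± 121 TPM in Epidermis KO, 885 ± 94.0 TPM in Epidermis WT, 1439 ± 81.2 TPM in Skin KO and 1224 ± 371 TPM in Skin WT. By the same mean, the highest of complex III was Uqcrh, the hinge protein (799 ± 38.4 TPM in Epidermis KO, 947 ± 40.6 TPM in Epidermis WT), followed by Uqcr11 (671 ± 42.4 TPM in Skin KO, 771 ± 247 TPM in Skin WT). The highest of complex I by that mean were Ndufb9 and Ndufb8, with 309 ± 26.1 and 287 ± 22.1 TPM in Epidermis KO and 367 ± 34.8 and 327 ± 29.5 TPM in Epidermis WT. Complex II was lower, with Sdhb at 90.1 ± 7.53 TPM in Epidermis KO and 83.8 ± 7.81 TPM in Epidermis WT. The TPM of members with copies leaves out the reads on the copies.

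The nuclear members moved in both directions in KO epidermis. Of 87 tested, 13 were higher and 17 lower in Epidermis KO, against 26.2% of all genes called higher and 25.3% called lower, so their share of calls (30 of 87) was below that of all genes. The groups did not overlap in 15 with KO above (30.4% of all genes) and in 20 with KO below (31.6%). By complex, accessory subunits of complex I made up 12 of the 17 that fell, and the 4 calls in complexes II and III were all higher; whether the complexes differ was not tested. Complex I had 1 of 36 higher and 12 lower, its assembly factors 1 of 8 higher and 2 lower, complex II 2 of 4 higher, complex III 2 of 8 higher, complex IV 2 of 14 tested higher and 1 lower, and complex V 5 of 17 higher and 2 lower. The median log2 fold change was -0.21 for complex I and 0.34 for complex II. By DESeq2 the totals were 15 higher and 17 lower, with complex II and III members again higher only.

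Among the 7 core complex I subunits encoded by the nucleus, Ndufs1 rose. It is the largest core subunit and carries iron-sulfur clusters (chr1:63143596-63176833, GRCm38). Ndufs1 had 132, 112 and 105 CPM in Epidermis KO and 61.0, 61.4 and 58.1 CPM in Epidermis WT (0.97 ± 0.12, adjusted p = 0.000302, edgeR), with a wide gap between the groups. In skin it had 125, 134 and 124 CPM in Skin KO and 198, 94.5 and 122 CPM in Skin WT (-0.03 ± 0.27, adjusted p = 0.943, edgeR). Its effect differed between the tissues (1.07 ± 0.30, adjusted p = 0.0339, edgeR). None of the 29 accessory subunits was called higher by edgeR (1 at an unadjusted p under 0.05, and 1 called by DESeq2), and 12 were lower. The smallest adjusted p among them was that of Ndufa7, with 96.8, 86.5 and 87.7 CPM in Epidermis KO and 148, 142 and 166 CPM in Epidermis WT (-0.73 ± 0.11, adjusted p = 0.000914, edgeR). Ndufa6, an accessory subunit of the LYR motif family, had 74.6, 57.6 and 59.1 CPM in Epidermis KO and 115, 102 and 128 CPM in Epidermis WT (-0.84 ± 0.14, adjusted p = 0.00138, edgeR). Both sets of libraries were separate. The other 10 that fell were Ndufv3, Ndufb2, Ndufb11, Ndufa13, Ndufa11, Ndufa2, Ndufs6, Ndufs4, Ndufa3 and Ndufs5, with log2 fold changes from -0.91 to -0.43.

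The assembly factor Ndufaf4 (chr4:24898083-24905001, GRCm38), which helps to build complex I and whose promoter is printed above, was higher in KO in both tissues. It had 21.8, 19.8 and 19.6 CPM in Epidermis KO and 10.2, 9.72 and 11.0 CPM in Epidermis WT (1.00 ± 0.13, adjusted p = 0.000467, edgeR). In skin it had 23.7, 23.7 and 22.8 CPM in Skin KO and 20.2, 10.6 and 12.5 CPM in Skin WT (0.79 ± 0.25, adjusted p = 0.0378, edgeR). All KO libraries lay above all WT libraries in each tissue. Ndufaf3 and Ndufaf8 were lower in Epidermis KO (-0.71 and -0.56). The skin call was lost in 8 of 18 alternatives, among them without any one of Skin WT 2, Skin WT 3 and the 3 Skin KO libraries.

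In complex II, which oxidises succinate and is encoded by the nucleus alone, the flavoprotein subunit gene Sdha (chr13:74322254-74350280, GRCm38) had 205, 157 and 173 CPM in Epidermis KO and 122, 119 and 119 CPM in Epidermis WT (0.58 ± 0.12, adjusted p = 0.00456, edgeR). In skin Sdha had 205, 219 and 198 CPM in Skin KO and 409, 195 and 258 CPM in Skin WT (-0.38 ± 0.27, adjusted p = 0.278, edgeR), with Skin WT 1 far above the others. The difference between the tissues passed the threshold (1.04 ± 0.30, adjusted p = 0.0383, edgeR). Sdhd, a membrane anchor, had 125, 95.5 and 96.0 CPM in Epidermis KO and 75.5, 65.5 and 60.1 CPM in Epidermis WT (0.67 ± 0.14, adjusted p = 0.00504, edgeR). The iron-sulfur subunit Sdhb (0.10) and the other anchor Sdhc (-0.12) missed the threshold. The tissue differences of Ndufs1 and Sdha, the only nuclear members that passed, were each lost in many alternatives (11 of 23 for Ndufs1 and 13 of 23 for Sdha), including each fit that left out a single library other than Skin WT 1 or Skin WT 2.

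In complex III, the core protein Uqcrc2 had 267, 214 and 222 CPM in Epidermis KO and 168, 137 and 119 CPM in Epidermis WT (0.74 ± 0.16, adjusted p = 0.00446, edgeR), and the Rieske iron-sulfur protein Uqcrfs1 had 176, 142 and 135 CPM in Epidermis KO and 122, 111 and 97.4 CPM in Epidermis WT (0.47 ± 0.14, adjusted p = 0.0235, edgeR). Both were above WT in every KO library. In complex V, Atp5b, the catalytic beta subunit, had 1831, 1385 and 1535 CPM in Epidermis KO and 1116, 944 and 948 CPM in Epidermis WT (0.67 ± 0.16, adjusted p = 0.00672, edgeR). Atp5a1, the alpha subunit (0.57), Atp5g3, 1 of 3 genes for the c subunit (0.58), Atp5f1 of the peripheral stalk (0.40) and the small Atp5mpl (0.62) were called higher too. Atp5e, the epsilon subunit, and Atp5h of the peripheral stalk were lower (-0.68 and -0.51). The calls of Ndufa4, Cox8a and Atp5h were each lost when some single libraries were left out: Ndufa4 without Epidermis WT 1, Epidermis WT 2 or Epidermis KO 1, Cox8a without Epidermis WT 2, Epidermis WT 3 or Epidermis KO 1, and Atp5h without Epidermis WT 3, Epidermis KO 2 or Epidermis KO 3. In complex IV, Ndufa4 (0.64) and Cox8a (0.52) were higher. Cox7a2l, counted here with complex IV, had 339.9, 268 and 282 CPM in Epidermis KO and 503, 419 and 629.8 CPM in Epidermis WT (-0.79 ± 0.17, adjusted p = 0.00511, edgeR).

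The difference between Epidermis KO and Epidermis WT varied with gene length over all genes, and the members followed that in part. Across all 13632 genes tested, the log2 fold change rose with the effective transcript length (Spearman's rho = 0.315), and across the 87 nuclear members tested rho was 0.252. Genes are not independent and share the libraries. Of the 7 nuclear members of 1500 bases or more, 5 were higher and 1 lower. In that class 3040 of all 9572 genes were higher and 1890 lower. Of the 38 under 500 bases 3 were higher and 11 lower, where 78 of all 709 genes were higher and 298 lower. Over all genes the medians were 0.14 for 1500 bases or more and -0.61 under 500 bases, while the nuclear members in those classes had medians of 0.58 and -0.20. Among the 13 mitochondrial members rho was 0.082. With the effective length of each gene in each library as an offset, 14 nuclear members were called higher and 16 lower. That offset takes up only differences in a gene's effective length between libraries, not a trend with length across genes. The part of length in the members' changes was not tested. In whole skin rho was -0.028 over all genes and 0.181 over the nuclear members. Between the tissues, rho over all genes was -0.371 for Epidermis WT against Skin WT and -0.096 for Epidermis KO against Skin KO. Genes under 500 bases had a median of 0.796 in Epidermis WT against Skin WT and 0.313 in Epidermis KO against Skin KO.

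**Figure D3:**
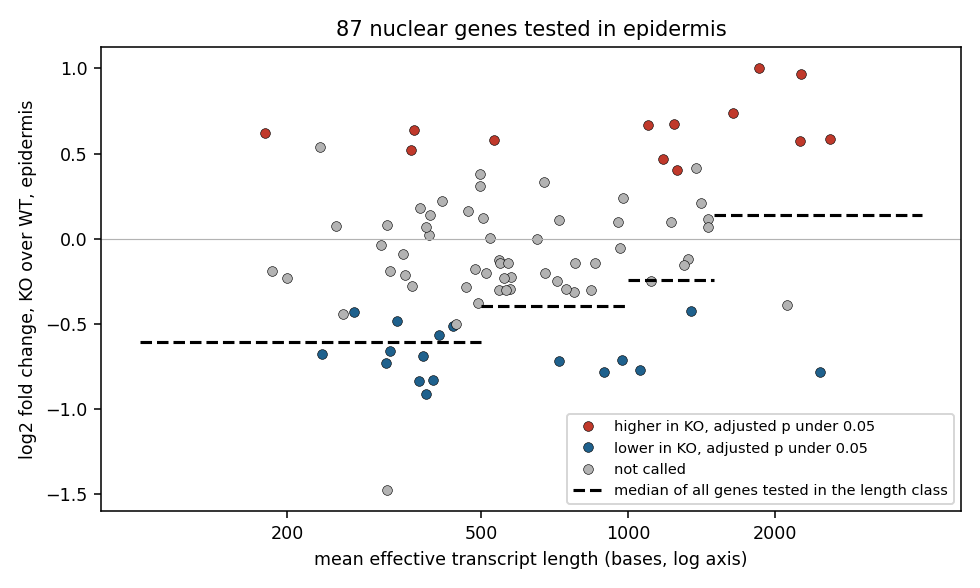
Log2 fold change of KO over WT in epidermis (vertical axis) against mean effective transcript length in bases (log axis) for the 87 nuclear members tested, coloured by call. Dashed lines give the median of all genes tested in 4 length classes, from -0.61 under 500 bases to 0.14 for 1500 bases or more, and 5 of the 7 longest members are called higher.

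In whole skin the nuclear members gave few calls until 1 library was left out. With all 6 libraries, 3 of 90 were higher in Skin KO (Cox8a, Cox6a1 and Ndufaf4) and 4 lower (Cox6a2, Cox7a1, Cox8b and Cox6b2), against 22.2% and 23.3% of all genes. The groups did not overlap in 3 nuclear members with KO above (25.8% of all genes) and in 15 with KO below (32.2%). The median log2 fold change of the nuclear members was -0.18. Without Skin WT 1, 36 were higher and 7 lower, the median turned to 0.28, and 51.2% of 15178 genes tested were called (24.9% higher and 26.3% lower). In that fit 11 of 17 complex V members, 6 of 8 of complex III, 9 of 36 of complex I and 7 of 17 of complex IV were higher. No complex I structural subunit was called by edgeR with all libraries (2 lower at an unadjusted p under 0.05, and 4 lower by DESeq2). Atp5g3 for example had 354, 379.9 and 340.0 CPM in Skin KO and 467, 195 and 226 CPM in Skin WT. Its log2 fold change was 0.36 ± 0.33, adjusted p = 0.408 with all libraries and 0.85 ± 0.12, adjusted p = 0.00274, without Skin WT 1 (edgeR). The KO libraries lay between Skin WT 1 and the other WT libraries. As given above, Skin WT 1 held the most muscle marker reads, and its nuclear respiratory sum was 2.10% of counts beside 1.10% and 1.24% in the other WT libraries.

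**Figure D4:**
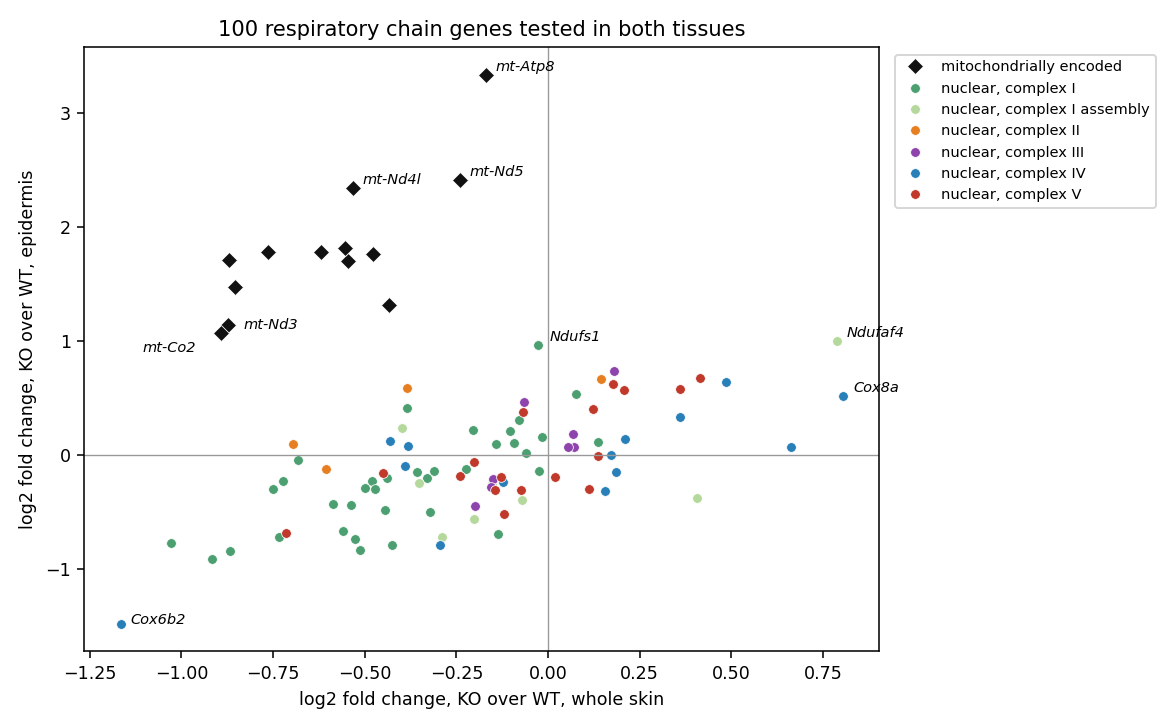
Log2 fold change of KO over WT in whole skin (horizontal axis) and in epidermis (vertical axis) for the 100 members tested in both tissues, coloured by genome and complex. The 13 mitochondrially encoded genes (black diamonds) form a group of their own, between -0.89 and -0.17 in skin and between 1.07 and 3.33 in epidermis, while nuclear genes lie around 0 on both axes with Ndufaf4 and Cox8a at the upper right.

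Of the 7 members called in both tissues, the 5 mitochondrial ones were lower in skin and higher in epidermis, and Ndufaf4 and Cox8a were higher in both. Cox8a (chr19:7215153-7217616, GRCm38), the widely expressed form of a small complex IV subunit, had 214, 210.1 and 211 CPM in Skin KO and 133, 131 and 123 CPM in Skin WT (0.81 ± 0.11, adjusted p = 0.00148, edgeR). Its KO values were nearly alike and all above WT. In epidermis it had 287, 219.6 and 238 CPM in Epidermis KO and 204, 152 and 169 CPM in Epidermis WT (0.52 ± 0.15, adjusted p = 0.0196, edgeR). Cox6a1 had 229, 238 and 218 CPM in Skin KO and 181, 154 and 125 CPM in Skin WT (0.66 ± 0.17, adjusted p = 0.0155, edgeR), and 323, 239 and 252 CPM in Epidermis KO and 246, 224 and 313 CPM in Epidermis WT, where the groups overlapped (0.07 ± 0.17, adjusted p = 0.742, edgeR). Without Skin WT 1 the values in skin were 0.82 for Cox8a and 0.79 for Cox6a1, both called, and the Cox6a1 call was lost without Skin KO 2. Whether the Cox6a1 effect differed between the tissues was tested and did not pass (adjusted p = 0.157, edgeR).

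The muscle isoforms of complex IV were the members with the largest difference in skin. Cox6a2, Cox7a1 and Cox8b are the forms of heart and skeletal muscle, Cox7a1 and Cox8b also of brown fat. Cox6a2 had 19.6, 7.57 and 3.23 CPM in Skin KO and 309, 38.9 and 99.8 CPM in Skin WT (-3.80 ± 0.94, adjusted p = 0.0148, edgeR). Cox7a1 had 7.45, 2.999 and 1.65 CPM in Skin KO and 129.5, 15.8 and 36.1 CPM in Skin WT (-3.83 ± 0.91, adjusted p = 0.013, edgeR). Cox8b had 12.6, 4.57 and 2.35 CPM in Skin KO and 190.0, 21.3 and 55.1 CPM in Skin WT (-3.69 ± 0.95, adjusted p = 0.0174, edgeR). No Skin KO library reached the lowest Skin WT library for any of them, and Skin WT 1 was the highest each time. Without Skin WT 1 the log2 fold changes were -2.70 for Cox6a2, -2.61 for Cox7a1 and -2.48 for Cox8b, and all 3 stayed called (adjusted p = 0.0248, 0.0166 and 0.0295, edgeR). All 3 calls were lost without Skin KO 2, and that of Cox8b also without Skin KO 3. The summed muscle markers lay in the same order of libraries, and 19 of the 20 were lower in KO. The 5 brown adipocyte markers, Cox8b among them, summed to 106, 135 and 88.9 CPM in Skin KO, where Ucp1 was at 0, and 247, 73.9 and 109 CPM in Skin WT. In epidermis the 3 isoforms were close to absent: Cox8b had 2, 0 and 0 counts in Epidermis KO and 0 counts in each Epidermis WT library, which allows up to 3 counts a library (0.244 CPM on average). Set against that limit, Cox8b was at least 364.5-fold lower in Epidermis WT than in Skin WT, or at least 157-fold lower without Skin WT 1. Cox6a2 had 1, 0 and 1 counts in Epidermis KO and 1, 1 and 0 counts in Epidermis WT. Cox7a1 had 0, 9 and 3 counts in Epidermis KO and 1, 2 and 2 counts in Epidermis WT.

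**Figure D5:**
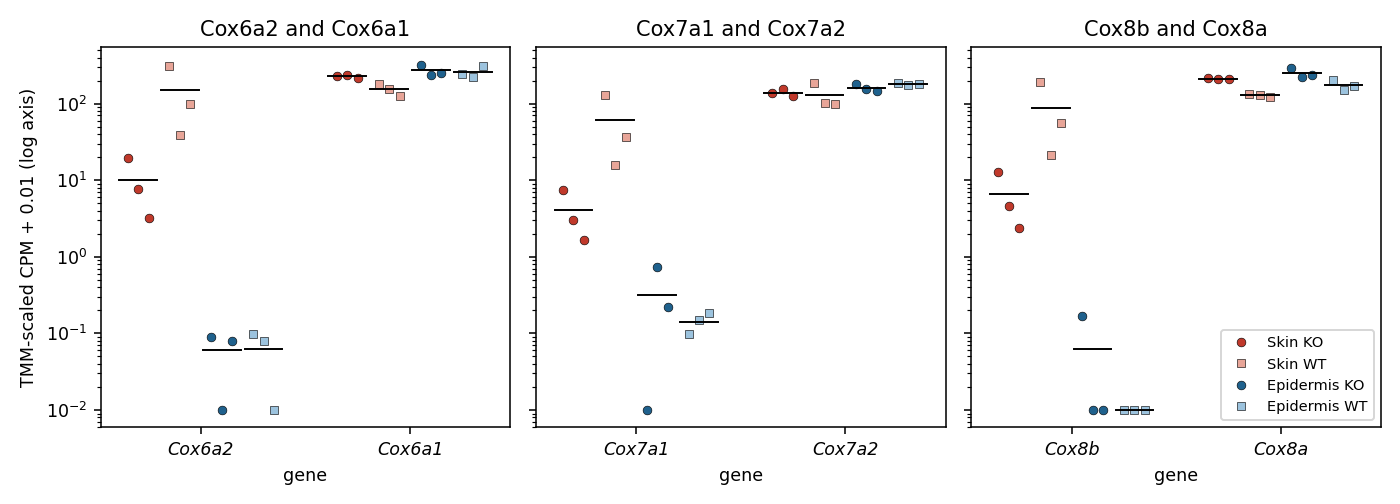
TMM-scaled CPM with 0.01 added, on a log axis, of 3 muscle isoforms of complex IV subunits, each beside its widely expressed counterpart. Points are libraries and bars the group means. Cox6a2, Cox7a1 and Cox8b reach 309, 129 and 190.0 CPM in Skin WT 1 and stay below 1 CPM in epidermis, while Cox6a1, Cox7a2 and Cox8a stay between 98.9 and 323 CPM in all 12 libraries.

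The widely expressed counterparts Cox6b1 and Cox7b were not called in skin with all libraries (0.21 and 0.36), were both called higher in KO without Skin WT 1 (0.66 and 0.79, adjusted p = 0.00459 and 0.00474, edgeR), and were not called in epidermis (0.14 and 0.33). Of the other isoforms, Cox6b2, known from testis, had 0.638, 0.643 and 0.571 CPM in Skin KO and 1.40, 1.36 and 1.70 CPM in Skin WT (-1.17 ± 0.27, adjusted p = 0.0121, edgeR), low in all libraries and separate between the groups. That call was lost without Skin KO 3 and with DESeq2. In epidermis it had 0.158, 0.318 and 1.13 CPM in Epidermis KO and 1.77, 1.31 and 1.64 CPM in Epidermis WT and missed the threshold (-1.48 ± 0.58, adjusted p = 0.0593, edgeR). Cox7b2 and Cox8c, also known from testis, had 0 counts in all 12 libraries, and Cox4i2, the lung form, reached at most 0.6997 CPM and was not tested. Ndufa4l2, which is known to be induced by hypoxia, had 132, 164 and 312 CPM in Epidermis KO and 330.3, 192 and 242 CPM in Epidermis WT (-0.31 ± 0.32, adjusted p = 0.438, edgeR), and 80.4, 96.3 and 129 CPM in Skin KO and 128, 74.3 and 89.8 CPM in Skin WT. It was higher in Epidermis WT than in Skin WT (1.35 ± 0.28, adjusted p = 0.00666, edgeR).

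Between the tissues, few nuclear members were called. In Epidermis WT against Skin WT 4 of 90 were higher (Ndufa4l2, Cox7a2l, Cox6a1 and Ndufa7), beside 17.5% of all genes, and 5 lower (the 3 muscle isoforms, Sdha and Ndufs1), beside 25.3%. The WT groups did not overlap in 7 nuclear members with epidermis above (27.5% of all genes) and in 6 with it below (29%). Without Skin WT 1, 45 were higher and 5 lower, and without TMM 3 were higher and 10 lower. The rise of Cox7a2l was lost without Skin WT 3, that of Cox6a1 without any 1 of 4 libraries (Skin WT 2, Skin WT 3, Epidermis WT 1 and Epidermis WT 3), and that of Ndufa7 without any 1 library but Skin WT 1. In Epidermis KO against Skin KO 8 of 89 were higher and the 3 muscle isoforms lower, against 14.1% and 15.9% of all genes. These rises depended on the scaling: without TMM, which moved the median of all genes to -0.28, 0 were higher and 14 lower (edgeR; 1 higher and 23 lower at an unadjusted p under 0.05), while DESeq2 called 10 higher and 3 lower. Leaving out Skin KO 3 left 1 higher. With TMM, 27 did not overlap with epidermis above (24.2% of all genes) and 4 with it below (23.6%). The largest of the rises was that of Ndufa7, with 96.8, 86.5 and 87.7 CPM in Epidermis KO and 63.3, 62.8 and 48.7 CPM in Skin KO (0.63 ± 0.12, adjusted p = 0.00911, edgeR), and a log2 difference of 0.33, not called, without TMM. Cox4i1, the common form of the largest nuclear complex IV subunit, had 504, 415 and 408 CPM in Epidermis KO and 334, 343 and 321 CPM in Skin KO (0.41 ± 0.10, adjusted p = 0.0241, edgeR), a call lost without any 1 of the 3 Skin KO libraries and, at 0.11, without TMM.

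Other genes of mitochondrial energy metabolism were counted from lists, beside 26.2% and 25.3% of all genes in epidermis. In KO epidermis 10 of 22 citric acid cycle and pyruvate dehydrogenase genes were higher and 3 lower. Ogdh, of the oxoglutarate dehydrogenase complex, had 292 CPM in KO and 167 CPM in WT epidermis, and Dlat, of pyruvate dehydrogenase, 51.3 CPM in KO and 29.7 CPM in WT epidermis. Pdk2, a kinase that switches pyruvate dehydrogenase off, was lower with 8.73 CPM in KO and 14.0 CPM in WT. Of 78 mitochondrial ribosome genes 2 were higher and 24 lower, with a median of -0.26 beside -0.15 for the nuclear members. Of 18 genes for electron carriers and coenzyme Q synthesis 7 were higher and 5 lower, among them Cyc1, the cytochrome c1 of complex III, with 222, 175 and 184 CPM in Epidermis KO and 120.3, 98.6 and 105 CPM in Epidermis WT (0.86 ± 0.14, adjusted p = 0.00106, edgeR). Pdss1, which makes the side chain of coenzyme Q, had 12.1 CPM in KO and 2.75 CPM in WT epidermis.

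Genes that act on mitochondrial DNA and its RNA did not move as 1 block in KO epidermis: 6 of 25 were higher and 4 lower. Lrpprc, which stabilises mitochondrial mRNAs, had 53.2, 51.2 and 50.8 CPM in Epidermis KO and 32.2, 32.8 and 29.97 CPM in Epidermis WT (0.72 ± 0.10, adjusted p = 0.000611, edgeR). Its partner Slirp was lower (-0.44 ± 0.16, adjusted p = 0.0432, edgeR). Polrmt, the mitochondrial RNA polymerase, was higher (0.34 ± 0.11, adjusted p = 0.0291, edgeR), and Tfam, which packages and transcribes mitochondrial DNA, had 24.0, 23.2 and 21.9 CPM in Epidermis KO and 28.3, 27.0 and 26.5 CPM in Epidermis WT and missed the threshold (-0.23 ± 0.12, adjusted p = 0.133, edgeR). Among 10 tested regulators of mitochondrial biogenesis, 5 were higher and the other 5 missed the threshold, with Ppard at 77.6 CPM in KO and 28.1 CPM in WT epidermis and the PGC-1 related coactivator Pprc1 at 61.4 CPM in KO and 31.7 CPM in WT epidermis. Of 8 tested carriers 3 were higher: Slc25a5, an ADP/ATP carrier, had 830.0 CPM in KO and 437 CPM in WT epidermis, and Ckmt1, a mitochondrial creatine kinase, 717 CPM in KO and 464 CPM in WT epidermis. Of 38 assembly factors outside the naming rule 6 were higher and 12 lower, and of 29 import genes 7 were higher and 6 lower.

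In KO skin, beside 22.2% of all genes called higher and 23.3% called lower, the same lists gave 1 of 22 citric acid cycle genes higher and 4 lower, 4 of 78 mitochondrial ribosome genes higher and 2 lower, 5 of 25 genes for mitochondrial DNA and RNA higher and 1 lower, and 3 of 11 regulators higher and 2 lower. Of 38 assembly factors 3 were higher and 7 lower, of 18 carrier and coenzyme Q genes 5 higher and 3 lower, of 10 carriers 3 higher and 3 lower, and of 29 import genes 6 higher and 1 lower. Leaving out Skin WT 1 raised the counts of higher calls, with 24.9% of all genes then called higher and 26.3% lower: the ribosome then had 35 of 78 higher and 2 lower, import 17 and 1, electron carriers and coenzyme Q synthesis 11 and 3, the mitochondrial DNA and RNA genes 10 and 1, assembly factors 6 and 8, the carriers and uncoupling proteins 5 and 2, the regulators 4 and 2, and the citric acid cycle genes 3 and 4. Ppargc1a, the coactivator PGC-1 alpha, had 1.49, 1.14 and 0.634 CPM in Skin KO and 6.86, 2.56 and 5.28 CPM in Skin WT (-2.08 ± 0.47, adjusted p = 0.0107, edgeR), low in all libraries. Slc25a4, the ADP/ATP carrier of muscle and heart, was lower with 159 CPM in KO and 1101 CPM in WT skin, while Slc25a5, the form of proliferating cells, was higher with 694 CPM in KO and 254 CPM in WT skin. Pdk4, which switches pyruvate dehydrogenase off, had 21.1 CPM in KO and 258 CPM in WT skin. Without Skin WT 1 all 4 stayed called, with log2 fold changes of -1.76 for Ppargc1a, -1.56 for Slc25a4, 1.51 for Slc25a5 and -2.84 for Pdk4.

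Outside the members and the mitochondrial chromosome, the genes whose CPM ranked most like the summed mitochondrial members over the 12 libraries were Gm13340 (Spearman's rho = 0.951), itself a copy of mt-Co1, Stat5a (0.895), Ppip5k1 and Xpnpep2 (0.881 each), and Acot2, Npbwr1 and Slc16a9 (0.874 each). Slc16a9, a transporter of the monocarboxylate family, averaged 22.8 CPM in Epidermis KO, 10.8 CPM in Epidermis WT, 10.8 CPM in Skin KO and 13.9 CPM in Skin WT. These are the highest of many genes ranked over few libraries that share groups and scaling, and are given as a description. Among the nuclear members the highest rho with the mitochondrial sum was 0.629, for Ndufa1, and Sdha had 0.105.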

How the data were processed

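Poly(A) RNA sequencing of 12 libraries was analysed. Per the submitters' processing notes the tools were bcl2fastq 2.17, STAR 2.5.1 and RSEM, with build mm10. The annotation release is not given in the sources used here, nor is the strand setting. It is therefore open whether the counts of mt-Nd6, the only mitochondrial member on the minus strand, hold reads of the other strand. The deposited files hold expected counts per gene, from which the authors' RSEM run also gave TPM and an effective length (another kind of value, in bases). Expected counts were rounded before testing. Values with a fractional part made up 8.42% to 9.98% per library. Of 47643 gene IDs, 47224 were matched to GENCODE M21 (GRCm38), 39106 of them with the same version, and 419 unmatched IDs held at most 0.0612% of counts.

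Genes passing edgeR's filterByExpr were tested with edgeR 4.0.16 (quasi-likelihood test, TMM scaling, 1 fit per comparison) in R 4.3.3, with p-values adjusted by Benjamini and Hochberg's method across every gene in the fit and a threshold of 0.05. SE is the log2 fold change divided by the square root of F. The genotype effect in epidermis minus that in skin came from 1 fit of 12 libraries. At a library's depth, 3 counts correspond to between 0.179 and 0.246 CPM, a limit that covers counting error only. DESeq2 1.42.0 was an alternative, beside other scalings, no filter, an effective length offset, a replicate block, the share of Y-linked counts as covariate, leaving out each library and adding the reads of nuclear copies, which was chosen after seeing the data. Copies were pseudogenes with at least 90% identity over 100 bases and 0.5 of the shorter sequence (blastn 2.17.0). The fitting script was also tested on simulated data. Same-numbered libraries of Skin KO and Skin WT deviated together (correlations of deviations 0.321, 0.304 and 0.256), so the blocked counts are given beside the skin results where they move them. Named were the 13 mitochondrially encoded members, all of complex II, per complex the 2 highest by mean TPM, in each comparison the 5 with the smallest adjusted p in each direction, the isoform pairs, the 5 genes most like the mitochondrial sum with ties, and, from the lists, genes among the 2 with the smallest adjusted p per direction. Other called members, Ndufa1, the length and promoter examples, Slirp, Tfam and Polrmt were named after their values were seen. The members and lists were chosen with earlier results of these data known.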

Additional observations from a re-analysis of the deposited data

Results flagged for a closer look

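The genotype effect (log2 fold change of KO over WT) in epidermis minus that in skin passed the test of the difference (edgeR, 1 fit of 12 libraries) for 15 members. Among the subunits of complex I encoded by mitochondrial DNA it was 2.323 for mt-Nd1, 2.656 for mt-Nd2, 2.084 for mt-Nd3, 2.627 for mt-Nd4, 2.955 for mt-Nd4l, 2.736 for mt-Nd5 and 1.825 for mt-Nd6. It was 2.317 for mt-Cytb of complex III. In complex IV it was 2.471 for mt-Co1, 2.036 for mt-Co2 and 2.397 for mt-Co3, and in complex V 2.445 for mt-Atp6 and 3.587 for mt-Atp8. The nuclear genes were Ndufs1 of complex I with 1.069 and Sdha of complex II with 1.041. In each of the 13 mitochondrially encoded genes the fitted effect was positive in epidermis and negative in skin. Neutrophil markers were higher in KO in both tissues, and fibroblast markers were higher in KO epidermis and lower in KO skin. Their part in these differences was not tested.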

How the results depend on the processing

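Of the alternatives to the tests, changes of scaling and filter within 1 tissue moved few counts. In skin, the count of mitochondrially encoded members called (5) was 10 with DESeq2, 8 without TMM scaling, 3 in 1 fit of 12 libraries, 2 with copies added and 1 when KO libraries with Y-linked reads were left out. With the replicate block it was 9. The nuclear count in skin (7) was 3 with the Y-linked share as covariate, 15 in the fit of 12 libraries and 0 without those KO libraries (lone library assumed to vary like the WT libraries), where 2658 of all genes were called. In epidermis the Y-linked covariate gave 8 mitochondrial members, 18 nuclear members and 4540 genes in all, and the fit of 12 libraries gave 14 nuclear members. Between WT tissues the mitochondrial count (1) was 3 with DESeq2, 2 without TMM and 0 with the replicate block (edgeR), and the nuclear count was 14 in the fit of 12 libraries. The Y-linked covariate could not be fitted there, since all values are 0. Between KO tissues the replicate block gave 5 nuclear members and 2805 genes, and the fit of 12 libraries 5 nuclear members. For the tissue difference the nuclear count (2) was 1 with the length offset, 1 with the Y-linked covariate and 0 with a replicate block that joined same-numbered skin and epidermis libraries, which called 1271 genes in all. The labels do not tie those libraries to 1 animal, and across tissues the same-numbered correlations were -0.404 to 0.11. Without TMM the median of all genes moved to -0.30 between WT tissues and -0.28 between KO tissues, and the share of calls that were higher to 23.6% and 12.4%, against 40.9% and 47.1% with TMM. In epidermis the same-numbered pairs shared only a number (correlations 0.097, 0.191 and -0.108), and the replicate block kept all 13 mitochondrial calls.

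Leaving out 1 library at a time gave 0 to 5 mitochondrial, 2 to 43 nuclear and 4944 to 7770 calls in all in skin, with the upper ends of the nuclear and total counts without Skin WT 1. In epidermis the counts were 13, 24 to 30, and 5856 to 6573. Between WT tissues they were 0 to 3, 6 to 50, and 4198 to 7830, between KO tissues 12 to 13, 4 to 9, and 2328 to 3561, and for the tissue difference 12 to 13, 0 to 8, and 1393 to 3940. The 2 reversed values were those of mt-Atp8 in skin, 0.204 without Skin WT 3 and 0.173 without Skin KO 2 (range over single libraries left out -0.413 to 0.204). Of the log2 fold changes of single genes, 1548 kept their direction and side of the threshold, 180 missed the threshold and 19 newly passed it. The cause of these changes was not tested.

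The mitochondrial sums were 13.24% in Epidermis KO, 3.658% in Epidermis WT, 4.186% in Skin KO and 6.703% in Skin WT by TPM, and 12.8%, 4.634%, 3.628% and 5.699% in the same order with copies. TMM scaling gave 3.668% in Skin WT. The nuclear sums by TPM were 2.314% in Epidermis KO, 2.423% in Epidermis WT, 2.841% in Skin KO and 3.259% in Skin WT, and TMM scaling gave 1.421% in Epidermis KO, 1.409% in Epidermis WT and 1.259% in Skin KO. The ratio with copies was 9.984 in Epidermis KO, 3.663 in Epidermis WT, 2.592 in Skin KO and 4.139 in Skin WT. Without 1 library, group means ran from 7.671 to 9.73% in Epidermis KO, 2.476 to 3.123% in Epidermis WT, 2.329 to 2.73% in Skin KO and 3.821 to 4.068% in Skin WT for mitochondrial sums. For nuclear sums they ran from 1.253 to 1.326%, 1.249 to 1.323%, 1.375 to 1.435% and 1.172 to 1.672% in that order, and for the ratio from 6.133 to 7.64, 1.873 to 2.509, 1.664 to 1.985 and 2.636 to 3.443. With 3 libraries a group, an exact permutation test of 1 value cannot go below p = 0.1.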
